A study of Mus musculus with 6 samples.

Results

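Lcn10, Stxbp6, Akr1c18, Adamtsl2, Cpd and Epcam are 6 of the less familiar genes of regulatory T cells (Treg), picked from these libraries for very high Treg counts. They are 6 of the 54532 genes in the deposited count table, found there by gene name. All 6 passed the filter on low counts that left 15543 genes for testing, but Lcn10, Stxbp6, Akr1c18 and Adamtsl2 had at most 10 counts in every Th17 and naive library and passed through their Treg counts. The choice used the Treg values, so every Treg value of these genes is given as a description with no test. The comparison of Th17 with naive cells, which holds no Treg library, was tested for Cpd and Epcam, the 2 genes that pass the filter on Th17 and naive libraries alone. Calling all 6 genes markers of Treg cells goes against the data for Cpd, which was 6.87-fold higher in Th17 than in Treg cells.

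The study compared 3 kinds of mouse T cells by bulk RNA sequencing of mRNA libraries. There were 2 libraries each of Treg, of interleukin-17-producing helper T cells (Th17) and of naive T cells. All 6 libraries were wild type, listed as untreated, and carry thymus as their tissue. The sources used here do not state strain, age, how the cells were sorted or whether Treg and Th17 cells were grown in culture. Nothing in the labels tells whether libraries of the same type are separate animals or cultures. The p-values therefore rest on library-to-library spread alone, which may be technical.

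Foxp3 is the transcription factor that programs Treg cells to dampen immune responses, Th17 cells promote inflammation through interleukin-17, and both types can be derived from naive CD4 T cells. The 6 genes encode proteins from unrelated families. Lcn10 is a lipocalin, a small secreted protein fold that carries hydrophobic molecules, best known in the mouse epididymis. Akr1c18 is the mouse 20-alpha-hydroxysteroid dehydrogenase, an aldo-keto reductase that inactivates progesterone. Adamtsl2 is a secreted glycoprotein without a protease domain that binds fibrillin-1 and latent TGF-beta binding protein 1. Stxbp6 (amisyn) binds the SNARE proteins that fuse vesicles with the plasma membrane. Cpd is a membrane-bound carboxypeptidase of the trans-Golgi network that trims arginine and lysine from the ends of proteins cut by furin. Epcam is a homophilic adhesion molecule of epithelia, the thymic epithelium among them.

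Total counts were 16458939 to 17901331 per library. Lineage markers followed the labels, with Foxp3 at 1008 and 1008 CPM (counts per 1000000 counts of TMM-scaled library size) in Treg, 0.909 and 0.483 CPM in Th17 and 15.0 and 13.5 CPM in naive libraries, and Il17a at 0 counts in both Treg and both naive libraries. All 10 T cell markers had counts in every library. In bulk RNA, fewer cells that express a gene and less of its RNA per cell cannot be told apart.

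The bases just before the transcription start of Lcn10, Adamtsl2 and Cpd are shown because they hold most of the motif matches found, and because Lcn10 and Adamtsl2 were near 0 outside Treg cells while Cpd was not. They are the 180 bases upstream of the RefSeq start on GRCm38.p6, 5′ to 3′ on the gene's strand, with matches to the searched motifs in capitals. The Lcn10 stretch is chr2:25682546-25682725 on the plus strand, the Adamtsl2 stretch chr2:27079199-27079378 on the plus strand, and the Cpd stretch chr11:76847009-76847188 on the minus strand.
Lcn10: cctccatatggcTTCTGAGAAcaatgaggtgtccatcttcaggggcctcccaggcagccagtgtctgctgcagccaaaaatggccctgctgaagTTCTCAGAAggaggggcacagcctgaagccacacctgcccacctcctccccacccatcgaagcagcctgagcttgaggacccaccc
Adamtsl2: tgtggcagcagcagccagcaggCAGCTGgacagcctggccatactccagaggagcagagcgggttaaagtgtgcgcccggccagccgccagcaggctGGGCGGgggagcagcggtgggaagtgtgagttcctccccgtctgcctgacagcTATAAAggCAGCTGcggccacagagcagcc
Cpd: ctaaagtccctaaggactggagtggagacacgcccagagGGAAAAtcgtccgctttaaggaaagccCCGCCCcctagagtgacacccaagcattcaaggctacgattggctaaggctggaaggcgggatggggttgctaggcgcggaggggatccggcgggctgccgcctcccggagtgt

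Lcn10 (ENSMUSG00000047356, chromosome 2, 25682726 to 25686081, plus strand, mm10) had 1794 and 1761 counts in the Treg libraries, 1 and 0 counts in the Th17 libraries and 0 counts in both naive libraries. In CPM it stood at 103 and 96.0 in Treg, a mean of 99.3 ± 4.63 (SD, n = 2). The gene was read in Treg and almost nowhere else. Against the floor of 3 counts per library its Treg level was at least 495-fold higher than in naive cells, and its Treg to Th17 ratio was 3703, with a 95% exact binomial interval of 664 to 146312 that covers counting error only.

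Akr1c18 (ENSMUSG00000021214, chromosome 13, 4132615 to 4150654, minus strand) had 2673 and 2321 counts in Treg, 7 and 4 in Th17 and 6 and 10 in naive libraries. Its CPM was 153 and 127 in Treg, 0.374 and 0.215 in Th17 and 0.387 and 0.691 in naive libraries. A trace was therefore counted in every Th17 and naive library, while the Treg mean was 140 ± 18.6 CPM (SD, n = 2). The log2 fold change was 8.01 with an approximate SE of 0.29 for Treg over naive cells and 8.85 with an SE of 0.30 for Treg over Th17 cells.

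Adamtsl2 (ENSMUSG00000036040, chromosome 2, 27079379 to 27108981, plus strand) had 1099 and 1634 counts in Treg, 0 in both Th17 and 6 and 8 in naive libraries. Its CPM was 62.8 and 89.1 in Treg and 0.387 and 0.553 in naive libraries. The Treg level was at least 473-fold higher than in Th17 cells against the floor, and its log2 fold change over naive cells was 7.32 with an SE of 0.33. Lcn10 and Adamtsl2 share chromosome 2 but their genes lie more than 1 Mb apart.

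Stxbp6 (ENSMUSG00000046314, chromosome 12, 44852484 to 45074709, minus strand) had 824 and 1450 counts in Treg, 2 and 1 in Th17 and 0 in both naive libraries. Its CPM in Treg was 47.1 and 79.1, so the Treg libraries differed more for this gene than for any of the other 5. The Treg level was at least 315-fold higher than in naive cells against the floor, and the Treg to Th17 ratio was 790 with a counting interval of 270 to 3832.

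Epcam (ENSMUSG00000045394, chromosome 17, 87635979 to 87651106, plus strand) had 1407 and 1258 counts in Treg, 1 and 0 in Th17 and 25 and 73 in naive libraries. Its CPM was 80.4 and 68.6 in Treg, 0.0535 and 0 in Th17 and 1.61 and 5.04 in naive libraries. Of the 5 genes that were highest in Treg cells, Epcam had the highest naive level. Its Treg over naive log2 fold change was 4.49 with an SE of 0.36, and its Treg to Th17 ratio was 2776 with a counting interval of 498 to 109693.

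Cpd (ENSMUSG00000020841, chromosome 11, 76778424 to 76847018, minus strand) had 4748 and 5942 counts in Treg, 38859 and 37634 in Th17 and 9 and 3 in naive libraries. Its CPM was 271 and 324 in Treg, 2078 and 2020 in Th17 and 0.581 and 0.207 in naive libraries. Cpd was thus far above naive cells in both other types, with a log2 fold change of 9.51 (SE 0.35) for Treg over naive cells and of -2.78 (SE 0.22) for Treg over Th17 cells. No other member was read at more than 1 CPM in Th17.

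**Figure D1:**
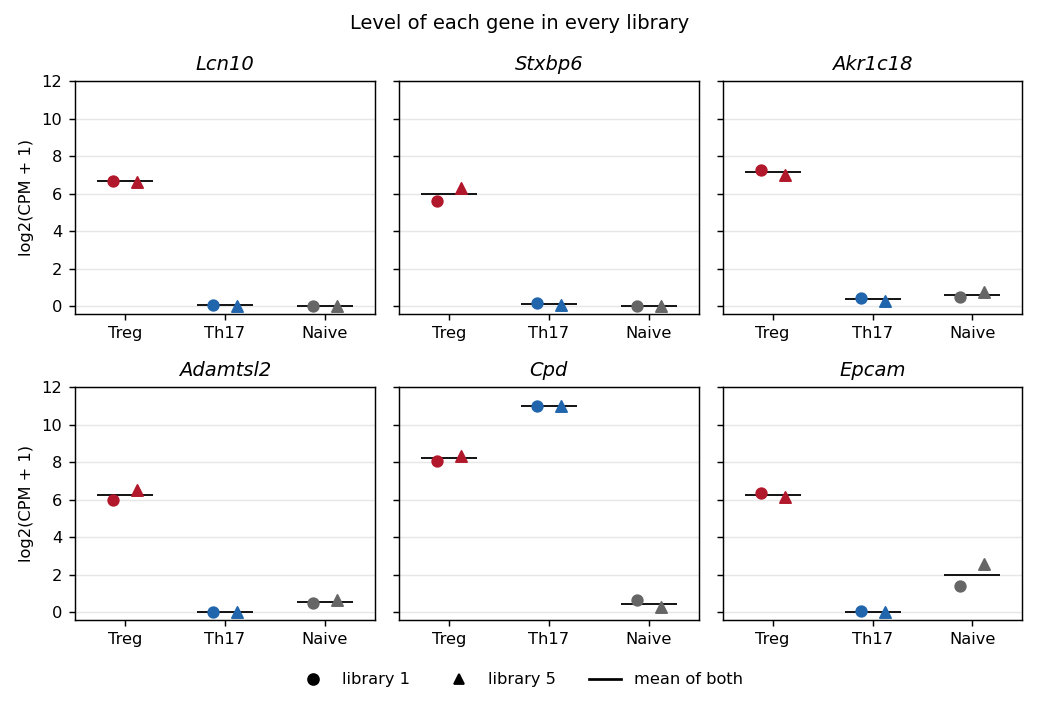
Level of each of the 6 genes in every library, as log2(CPM + 1) on the vertical axis, with circles for library 1, triangles for library 5 and a line for the mean of both, for Treg, Th17 and naive cells from left to right. In 5 panels the Treg points stand far above Th17 and naive points, and in the Cpd panel the Th17 points stand above the Treg points.

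Both Treg libraries lay above both naive libraries for all 6 genes, where 36.5% of all tested genes had that order, and above both Th17 libraries for 5 of 6, where 37.1% of all tested genes had that order. These orders follow from how the genes were picked. When the tested genes were ranked by the lead of their Treg mean over the higher of the Th17 and naive means on the log2(CPM + 1) scale, Lcn10 stood 1st and Akr1c18 2nd of 15543, Foxp3 5th, Stxbp6 8th, Adamtsl2 9th, Epcam 25th and Cpd 15245th. With a mean Treg level of at least 50 CPM and every Th17 and naive library under 1 CPM, limits chosen after the values were seen, 6 tested genes remained. They were Akr1c18, Lcn10, Adamtsl2 and Stxbp6 with Xcl1 (a chemokine, 120 CPM in Treg) and Setbp1 (a SET-binding nuclear protein, 88.7 CPM in Treg).

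**Figure D2:**
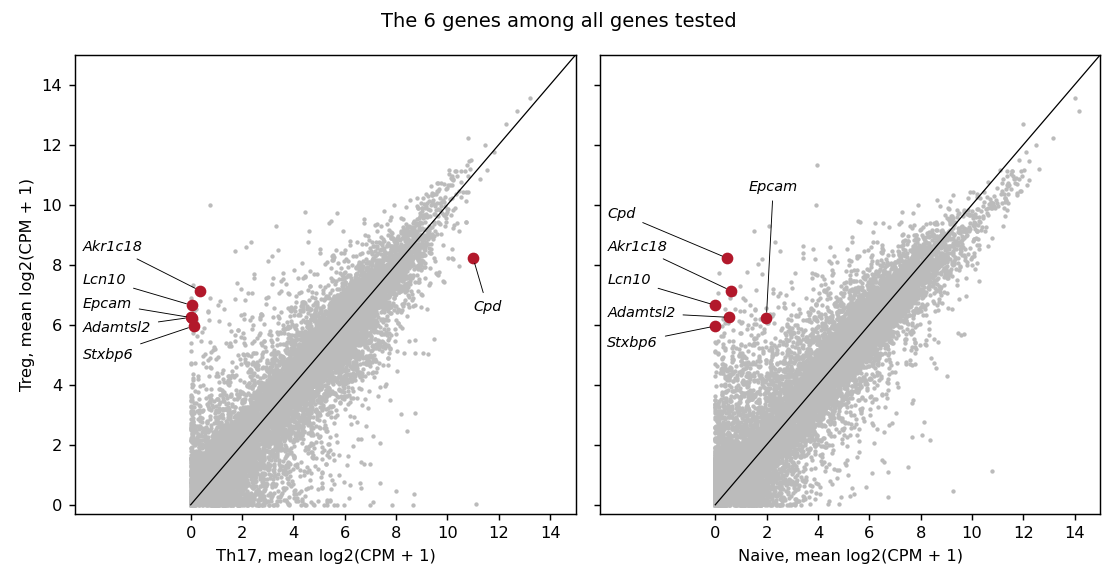
Mean log2(CPM + 1) of 15543 tested genes (grey) in Treg cells on the vertical axis against Th17 cells (left) and naive cells (right), with the 6 genes in red and a line of equal level. Lcn10, Akr1c18, Adamtsl2, Stxbp6 and Epcam lie at the left edge of the Th17 panel, and Cpd lies below the line there and at the left edge of the naive panel.

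Levels of different genes were compared per kb of the gene length in the deposited table, since Cpd (8332 bases) and Adamtsl2 (7993 bases) are far longer than Lcn10 (1106 bases) and Akr1c18 (1207 bases). In Treg cells the order was Akr1c18 with 116 ± 15.4 CPM per kb, Lcn10 with 89.8 ± 4.19, Epcam with 36.5 ± 4.11, Cpd with 35.7 ± 4.46, Stxbp6 with 11.9 ± 4.27 and Adamtsl2 with 9.50 ± 2.32 CPM per kb (SD, n = 2 each). Library values of Epcam and Cpd overlapped, as did those of Stxbp6 and Adamtsl2, while the other neighbours in this order did not overlap. Foxp3 had 253 CPM per kb in Treg cells. By this measure Akr1c18 ranked 327th and Lcn10 449th of 15543 genes in Treg cells, but Stxbp6 ranked 4685th and Adamtsl2 5511th, so the last pair were middling transcripts in level. Cpd ranked 1458th in Treg and 115th in Th17 cells.

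The Treg libraries differed in opposite directions for different members. Library 5 over library 1 was 1.68 for Stxbp6, 1.42 for Adamtsl2 and 1.19 for Cpd, and 0.936 for Lcn10, 0.853 for Epcam and 0.828 for Akr1c18 in CPM. Among 7536 genes with at least 20 CPM in Treg cells, 1.14% differed as much as Stxbp6 or more between the Treg libraries, and 4.01% as much as Adamtsl2 or more. The spread of Stxbp6 was therefore wide among genes of at least 20 CPM, and for the other 4 members 21.8% to 67.1% of genes differed as much or more.

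In the Th17 against naive comparison, the one that the choice of genes did not use, Cpd was higher and Epcam lower in Th17. The test was edgeR's quasi-likelihood F-test with Benjamini-Hochberg adjustment over all 15543 genes, called at an adjusted p under 0.05. It called 57.7% of all genes, 29.3% higher and 28.4% lower in Th17, so a call in this comparison was common. Of the called genes 50.8% were higher in Th17, and 62.6% were with libraries scaled by total count, which moved the median log2 fold change of all genes from -0.03 to 0.21. Cpd averaged 2049 ± 41.2 CPM in Th17 and 0.394 ± 0.264 CPM in naive cells (SD, n = 2 each), a log2 fold change of 12.30 with an SE of 0.36 and an edgeR adjusted p of 2.10e-11. With 12 counts in the naive libraries together, its fold was sensitive to them: log2 was 13.22 without naive library 1 and 11.77 without naive library 5.

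Epcam was at 0.0267 ± 0.0378 CPM in Th17 and 3.33 ± 2.43 CPM in naive cells (SD, n = 2 each), a naive to Th17 ratio of 122 with a 95% counting interval of 21.4 to 4869 and an edgeR adjusted p of 1.08e-05. Without naive library 5 the log2 fold change was -5.58 and without Th17 library 1 it was -8.79, against -6.60 with all libraries, and the call held in each. Adamtsl2 had 0 counts in Th17 and 0.470 ± 0.117 CPM in naive cells (SD, n = 2). Akr1c18 had 0.295 ± 0.113 CPM in Th17 and 0.539 ± 0.215 CPM in naive cells (SD, n = 2 each). Lcn10 with 1 count and Stxbp6 with 3 counts over the Th17 libraries, and 0 in naive libraries, were at or under the floor in both types. These 4 genes are given by their values in Th17 and naive cells, with no test.

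The authors' deposited table gives a log2 fold change for Th17 against naive cells of 12.38 for Cpd and -6.91 for Epcam with an adjusted p of 0.000123. For Treg against naive cells the authors' deposited table lists log2 fold changes of 13.00 for Lcn10, 12.35 for Stxbp6, 9.56 for Cpd, 8.05 for Akr1c18, 7.37 for Adamtsl2 and 4.51 for Epcam. Lcn10 and Stxbp6 have 0 counts in both naive libraries, so the size of their fold changes there depends on the method.

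The naive level of Epcam moved with markers of other tissues. Naive library 5 had 3.13 times the Epcam CPM of naive library 1, and 3.71 times the summed CPM of 22 pancreatic acinar genes, a list added after the values were seen. That sum was 5.77 and 4.58 CPM in Treg, 13.1 and 11.8 CPM in Th17 and 36.4 and 135 CPM in naive libraries. Cela1 alone gave 11.98 and 10.25 CPM of the Th17 sums, and 16 of the 22 genes had 0 counts in each Th17 library. Cela1 had 2.57 and 2.62 CPM in Treg and 4.84 and 14.16 CPM in naive libraries. Naive library 5 also had the epithelial keratins Krt8 at 3.59 CPM and Krt19 at 2.63 CPM, against 0.258 and 0.0645 CPM in naive library 1. Krt5 and Krt14 had 0 counts in both naive libraries. Markers of fibroblasts and endothelium differed in both directions between naive libraries 1 and 5, with Col1a1 at 2.97 and 0.622 CPM and Dcn at 0.129 and 2.35 CPM. The part of other tissue in the naive level of Epcam and in its Th17 against naive call was not tested.

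Markers of epithelium did not move as one in Treg cells. Of 16 markers of thymic and other epithelium, Foxn1, which specifies thymic epithelium, had 0 counts in all 6 libraries, and Krt8 stood at 0.172 and 0.109 CPM in Treg. Krt5 and Krt14 stood at 1.03 and 1.83 CPM in Treg library 1 and at 0 in Treg library 5, and Epcam, at 80.4 and 68.6 CPM, was also higher in library 1. Cdh1 (E-cadherin) and Cldn7, a claudin, were called higher in Treg than in either other type. Both passed the filter on low counts through Treg, so they could hardly be called lower there. The summed CPM of the 16 markers was 23.3 and 16.7 in Treg, 19.7 and 12.2 in Th17 and 2.71 and 9.95 in naive libraries. In Treg most of it was Cdh1 with 16.1 and 12.8 CPM, and in Th17 it was Cldn4 (a tight junction claudin) with 11.3 and 3.97 CPM and Prss16 (a thymic serine protease) with 7.65 and 7.25 CPM. The part of epithelial cells in the Treg level of Epcam was not tested.

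Genes that act with Epcam or cut it were followed as a list of 36, of which 27 were tested. Against naive cells 15 rose and 3 fell in Treg, a median log2 fold change of 0.73, where 23.6% of all genes rose, 19.9% fell and the median was -0.0046. Of all called genes in that comparison 54.3% were higher in Treg, and 67.0% with scaling by total count, which moved the median to 0.17. Against Th17 cells 11 rose and 3 fell in Treg, a median of 0.43, where 19.0% of all genes rose, 19.4% fell and the median was 0.02, and without Treg library 5 the 11 became 7. The genes that rose in both comparisons include Cdh1 and Cldn7, which passed the filter on low counts through Treg and could hardly have fallen. Cdh1 had 16.1 and 12.8 CPM in Treg, 0.0535 and 0 in Th17 and 0.516 and 0.553 in naive libraries. Its log2 fold change was 4.74 (SE 0.42) for Treg over naive cells, and its Treg to Th17 ratio was 538 in counts. Cd9, a tetraspanin that associates with Epcam, was at 105 and 82.4 CPM in Treg, 8.13 and 8.64 in Th17 and 42.7 and 58.4 in naive libraries, and was called higher in Treg than in either. Cldn7, the claudin that binds Epcam directly, had 2.40 and 3.05 CPM in Treg, 0.321 and 0.376 in Th17 and 0.0645 and 0.691 in naive libraries. Cldn4 and Cd44, the hyaluronan receptor, were instead called lower in Treg than in Th17 cells, Cd44 with 22.4 and 32.5 CPM in Treg and 110 and 183 CPM in Th17. St14, the matriptase that cleaves Epcam, had 14.5 and 14.1 CPM in Treg, 15.1 and 22.1 in Th17 and 1.42 and 1.24 in naive libraries. Ctnna1 (alpha-catenin) had 197 and 202 CPM in Treg, 145 and 140 in Th17 and 23.2 and 22.0 in naive libraries.

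Of 22 other lipocalins listed, 9 were tested. In Treg against naive cells 4 rose and 3 fell, with a median log2 fold change of -0.05, where 23.6% of all genes rose and 19.9% fell. In Treg against Th17 cells 4 rose and the other 5 did not pass, with a median of 1.52, where 19.0% of all genes rose. Lcn6 and Obp2a, which flank Lcn10 on the chromosome, had 50 and 23 counts and 29 and 25 counts in Treg and 0 in all Th17 and naive libraries. Rbp4, the retinol carrier of blood, had 2.57 and 4.63 CPM in Treg, 0 in both Th17 and 0 and 0.207 in naive libraries. Lcn6, Obp2a and Rbp4 passed the filter on low counts through Treg, so they could hardly be called lower there. The counts that rose in both Treg comparisons, and the median against Th17 cells, include them. The 3 that fell against naive cells in Treg were Lcn4, Orm1 and Orm2. Orm2, an acute-phase plasma protein, had 1.66 and 1.47 CPM in Treg and 5.61 and 5.80 CPM in naive libraries. Each of these was far below the 103 and 96.0 CPM of Lcn10 in Treg.

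Coding-sequence identity to Lcn10 was at most 53.5%, with Lcn5, followed by Lcn6 with 53.0%. No run of 50 bases of the Lcn10, Cpd or Epcam transcripts occurred in transcripts of another gene. For Stxbp6 it was 1.02% of such runs, for Akr1c18 0.581% (each of them with Akr1cl) and for Adamtsl2 0.112%. Reads of the 6 genes could thus seldom be shared with a copy elsewhere, the near relatives of Akr1c18 included, whose coding sequences were 74.1% to 77.5% identical to its own in the Akr1c and Akr1cl genes. A pseudogene and an intronic transcript overlap Stxbp6, with at most 4 counts in any library.

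Among the other 19 aldo-keto reductases, 11 were tested. In Treg against naive cells 3 rose and 1 fell, with a median log2 fold change of 0.49, where 23.6% of all genes rose and 19.9% fell. In Treg against Th17 cells 3 rose and 2 fell, with a median of -0.16, where 19.0% rose and 19.4% fell. The counts were unstable: those that rose against naive cells numbered 0 without Treg library 1 and 1 without Treg library 5 or naive library 1, the gene that fell did not pass without Treg library 1, and 4 fell against Th17 cells without either naive library. The tested neighbours of Akr1c18 in the Akr1c cluster shared its pattern only in part. Akr1c13, whose start lies 40.5 kb from that of Akr1c18, averaged 10.8 ± 2.08 CPM in Treg, 1.42 ± 0.110 in Th17 and 13.1 ± 1.21 in naive cells (SD, n = 2 each). Akr1c12 had 2.92 and 4.36 CPM in Treg, 0.160 and 0.161 in Th17 and 1.74 and 2.42 in naive libraries. Both were called lower in Th17 than in naive cells, with log2 fold changes of -3.20 (SE 0.31) and -3.63 (SE 0.62), and neither passed between Treg and naive cells. Against Th17 cells both were called higher in Treg, with log2 fold changes of 2.92 (SE 0.31) and 4.44 (SE 0.60). Akr1c18 was low in both Th17 and naive cells, while these neighbours were low in Th17 alone. Akr1c14 and Akr1c19, in the same cluster, had at most 4 counts in any library.

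Steroid handling was followed because Akr1c18 acts on progesterone, with 24 of 44 genes tested. In Treg against naive cells 6 rose and 5 fell, with a median log2 fold change of 0.08, where 23.6% of all genes rose and 19.9% fell. The list was thus close to all genes there. Scaling by total count made it 10 that rose, and raised those of all 15543 genes from 3662 to 4542. In Treg against Th17 cells 7 rose and 5 fell, where 19.0% of all genes rose and 19.4% fell. The share that fell was close to that of all genes, and the share that rose was above it. Without each library in turn 5 to 8 rose. Cyp11a1, the mitochondrial enzyme that makes pregnenolone from cholesterol, had 31.0 and 74.3 CPM in Treg, 33.4 and 32.3 in Th17 and 0.194 and 0.276 in naive libraries. It was called higher in both types than in naive cells, and between Treg and Th17 cells it did not pass (edgeR adjusted p = 0.0810). Hsd11b1, which regenerates active glucocorticoid, averaged 24.4 ± 6.29 CPM in Treg, 5.47 ± 2.59 in Th17 and 115 ± 12.4 in naive cells (SD, n = 2 each), and was called lower in Treg than in naive and higher in Treg than in Th17 cells.

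Of 55 ADAMTS, ADAMTS-like and microfibril genes besides Adamtsl2, a list that also holds the Treg marker Lrrc32, 21 were tested. In Treg against naive cells 10 rose and 5 fell, with a median log2 fold change of 1.29, or 0.86 with genes at 0 counts set to their bound, where 23.6% of all genes rose and 19.9% fell. In Treg against Th17 cells 6 rose and 5 fell, with a median of 0.06, where 19.0% rose and 19.4% fell. Those that fell against naive cells numbered 2 without Treg library 1 and 3 without Treg library 5, and 3 fell against Th17 cells without Treg library 5. Fbln2, a fibulin of the matrix, had 47.7 and 49.7 CPM in Treg, 0.321 and 0.0537 in Th17 and 0.129 and 0.207 in naive libraries. Fbln2 passed the filter on low counts through Treg and could hardly be called lower there, and the counts that rose include it. Lrrc32, which docks latent TGF-beta on the Treg surface, had 418 and 448 CPM in Treg, 4.97 and 3.44 in Th17 and 4.90 and 3.25 in naive libraries. Loxl4, a lysyl oxidase, averaged 9.89 ± 0.892 CPM in Treg, 0.829 ± 0.945 in Th17 and 0.523 ± 0.447 in naive cells (SD, n = 2 each). The relatives of Adamtsl2 without a protease domain that were tested, Adamtsl4, Adamtsl5 and Papln, were called lower in Treg than in Th17 cells. Adamtsl5 had 0 and 0.0545 CPM in Treg, 19.6 and 20.9 in Th17 and 0 in both naive libraries. Papln (papilin) had 0.572 and 0.654 CPM in Treg, 22.9 and 9.50 in Th17 and 0.323 and 0.345 in naive libraries. Adamtsl4 had 4.06 and 3.11 CPM in Treg, 6.26 and 8.64 in Th17 and 13.8 and 9.40 in naive libraries.

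Of 23 other metallocarboxypeptidases, 11 were tested, and in Treg against naive cells 3 rose and 4 fell, where 23.6% of all genes rose and 19.9% fell, and 1 rose without Treg library 5. Cpe, which trims prohormones, had 0.743 and 1.96 CPM in Treg, 14.3 and 4.78 in Th17 and 0.129 and 0.138 in naive libraries, the same order of types as Cpd. In Th17 against naive cells 3 rose and 5 fell, where 29.3% and 28.4% of all genes did, and 1 rose when naive library 5 or Th17 library 5 was left out. Among those that fell were Cpb1 and Cpa1, digestive enzymes of the pancreas, with 0 counts in every Treg and Th17 library and 2.58 and 8.29 CPM for Cpb1 and 1.55 and 6.84 CPM for Cpa1 in naive libraries, and Cpa3, a mast cell protease. Cpb1 and Cpa1 belong to the acinar list, and the part of other tissue in these calls was not tested.

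Genes that work beside Cpd, the proprotein convertases and the arginine genes, numbered 29, of which 20 were tested. In Th17 against naive cells 12 rose and 1 fell, with a median log2 fold change of 0.70, where 29.3% of all genes rose, 28.4% fell and the median was -0.03. The 1 that fell became 3 without naive library 5, 2 without naive library 1 or either Treg library and 0 without Th17 library 5. In Treg against Th17 cells 2 rose and 7 fell, with a median of -0.19, where 19.0% of all genes rose and 19.4% fell, and 1 rose without any one of the Treg and Th17 libraries. Furin, the convertase whose products Cpd trims, had 417 and 318 CPM in Treg, 1319 and 1014 in Th17 and 36.3 and 31.3 in naive libraries. It had the order of types that Cpd had, with a Treg over Th17 log2 fold change of -1.67 (SE 0.21) where that of Cpd was -2.78. Nos2, the inducible synthase that makes nitric oxide from arginine, had 0 counts in both Treg libraries, 28.8 and 15.0 CPM in Th17 and 0.129 and 0.138 in naive libraries. Gatm, which uses arginine to make the precursor of creatine, had 3.83 and 1.64 CPM in Treg, 35.9 and 48.9 in Th17 and 0.323 and 0.345 in naive libraries.

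Around Stxbp6, 51 SNARE, Sec1/Munc18 and exocyst genes were listed and 47 tested. In Treg against naive cells 14 rose and 7 fell with a median log2 fold change of 0.18, where 23.6% of all genes rose and 19.9% fell. In Treg against Th17 cells 11 rose and 8 fell with a median of 0.10, where 19.0% rose and 19.4% fell. Scaling by total count left 4 that fell against naive cells, as did leaving out Treg library 5, and 2 fell without Treg library 1. Against Th17 cells 4 fell without Treg library 5 or Th17 library 5, and 5 without Treg library 1 or Th17 library 1. Stx11, a syntaxin of lytic granule release, had 14.9 and 14.4 CPM in Treg, 191 and 184 in Th17 and 4.07 and 3.66 in naive libraries. It was called lower in Treg than in Th17 cells, whereas Stxbp6 had 2 and 1 counts in Th17. Vamp1 was called higher in Treg than in Th17 cells, with 108 and 95.8 CPM in Treg and 21.8 and 38.4 CPM in Th17.

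**Figure D3:**
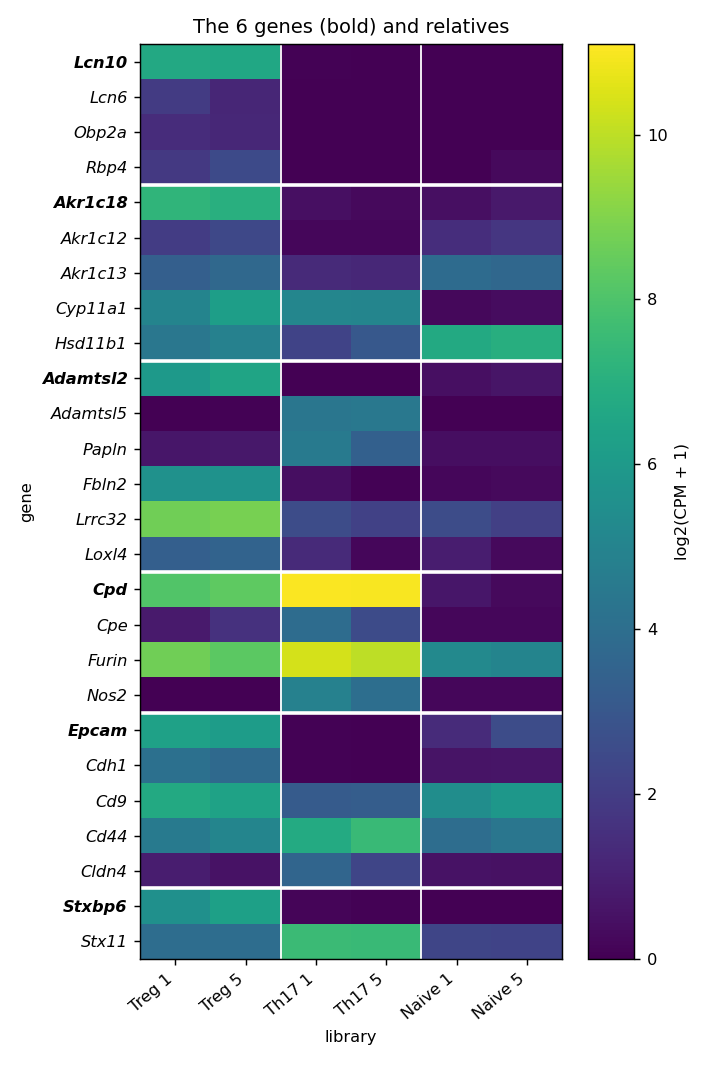
Level of the 6 genes (bold) and of 20 genes from their lists, chosen for the text, as log2(CPM + 1) in colour, with 1 column per library in the order Treg, Th17, naive and white lines between blocks. Fbln2, Lrrc32 and Cdh1 are brightest in the Treg columns, while Adamtsl5, Papln, Furin, Nos2, Stx11 and Cd44 are brightest in the Th17 columns next to Cpd.

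The nearest genes on the chromosome were examined because position was not used to pick the members. Within 200 kb of the 6 genes lie 90 other genes, of which 36 were tested and 5 were called higher in Treg in both Treg comparisons, where 7.08% of all tested genes were. The 5 were Lcn6, Obp2a and Bmyc near Lcn10 and Med22 and Sardh near Adamtsl2, and within 50 kb only the 3 near Lcn10 were left. Lcn6 and Obp2a had 0 counts in every Th17 and naive library and passed the filter on low counts through Treg. They could therefore be called only higher in Treg, and their calls add nothing to the counts as a test. Lcn6 ends 1.12 kb before Lcn10 starts and is on the same strand. Its 50 and 23 Treg counts were at least 10.3-fold above naive cells and at least 12.8-fold above Th17 cells against the floor. Obp2a starts 14.0 kb beyond the end of Lcn10, and its Treg level was at least 7.54-fold above naive and at least 9.40-fold above Th17 cells. Bmyc, a Myc relative, had 20.3 and 24.2 CPM in Treg, 4.76 and 5.10 in Th17 and 3.36 and 3.66 in naive libraries, a Treg over naive log2 fold change of 2.66 (SE 0.26). Lcn8, Lcn5, Lcn3, Lcn11 and Lcn9 in the same stretch had 0 counts in every library.

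**Figure D4:**
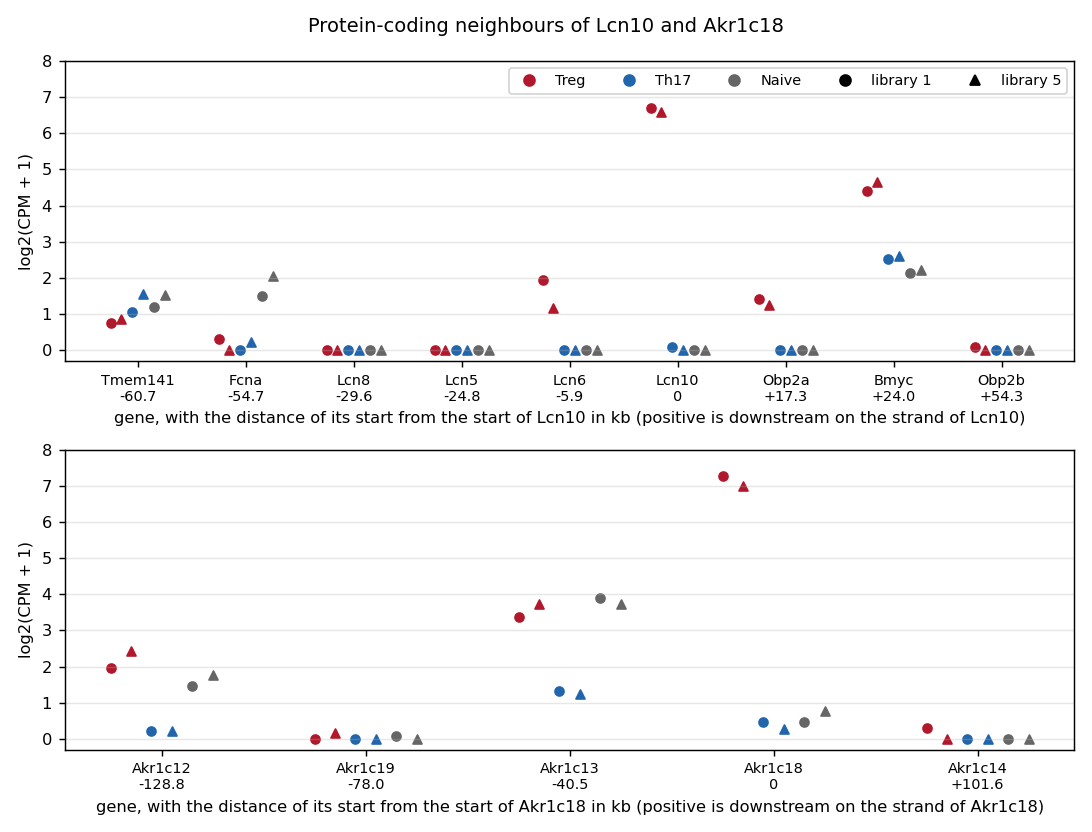
Level of the protein-coding genes beside Lcn10 (top) and Akr1c18 (bottom), as log2(CPM + 1), in order of the distance of their start in kb from that of Lcn10 or Akr1c18, with Treg, Th17 and naive from left to right for each gene, circles for library 1 and triangles for library 5. Lcn6, Obp2a and Bmyc are highest in Treg beside Lcn10, and Akr1c12 and Akr1c13 are lowest in Th17 beside Akr1c18.

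Near Adamtsl2, Sardh, a mitochondrial sarcosine dehydrogenase 79.4 kb beyond its end, had 16.6 and 13.1 CPM in Treg, 0.374 and 0.429 in Th17 and 4.19 and 3.80 in naive libraries. It was called lower in Th17 than in naive cells. Slc2a6, a hexose transporter 51.4 kb to the other side of Adamtsl2 that is named after its values were seen, went the other way: it had 5.66 and 7.80 CPM in Treg, 82.3 and 81.2 in Th17 and 0.903 and 0.622 in naive libraries, a Treg over Th17 log2 fold change of -3.60 (SE 0.22). Of the closer genes, Mymk had 0 and 2 counts and Fam163b 0 and 19 counts in Treg, and neither was tested. Beside Cpd, Gosr1 did not pass in any comparison, with 63.5 and 63.1 CPM in Treg, 59.2 and 65.2 in Th17 and 76.3 and 76.2 in naive libraries. Tmigd1, 55.1 kb to the other side, had 0 and 2 counts in Treg, 30 and 29 in Th17 and 0 and 1 in naive libraries, and was called higher in Th17 than in either other type. No tested gene lay within 200 kb of Stxbp6.

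The genes most like each member in profile were found by the root mean square (RMS) difference of log2(CPM + 1) over the 6 libraries. Xcl1 was nearest to both Lcn10 (RMS 0.406) and Akr1c18 (0.373), Setbp1 to Adamtsl2 (0.280), and Fbln2 to Stxbp6 (0.317). Xcl1 averaged 120 CPM in Treg, 0 in Th17 and 0.495 in naive cells, and Setbp1 averaged 88.7 CPM in Treg, 0.0804 in Th17 and 0.933 in naive cells. Setbp1 was among the 3 nearest genes of 4 members, namely Lcn10, Akr1c18, Adamtsl2 and Epcam. The remaining near genes were Fbln2 for Lcn10 and Adamtsl2, Xcl1 for Adamtsl2, Hrh3 and Lhx6 for Stxbp6, and D630039A03Rik for Akr1c18.

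Epcam and Cpd had profiles that fewer genes came close to. The nearest to Epcam was Igha (RMS 0.643), the heavy chain constant gene of immunoglobulin A, with a mean of 91.8 CPM in Treg, 0.161 in Th17 and 2.04 in naive cells, followed by Drc1 and Setbp1. B cell markers did not move with Igha: the summed CPM of 6 of them was 6.69 and 4.91 in Treg, 5.62 and 6.92 in Th17 and 46.2 and 56.9 in naive libraries, and Ms4a1 (CD20) had 0 counts in both Treg libraries. The nearest to Cpd was Cdkn1a, the cell cycle inhibitor p21, at an RMS of 1.37, with a mean of 130 CPM in Treg, 507 in Th17 and 0.661 in naive cells. Bhlhe40, a helix-loop-helix repressor, averaged 261 CPM in Treg, 481 in Th17 and 2.16 in naive cells, and Pdgfb, a growth factor, 90.5 CPM in Treg, 594 in Th17 and 0.696 in naive cells. By Pearson's r instead, which ignores level, 2 of the 18 named genes were kept.

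Each of the 6 genes had 1 promoter in the RefSeq table, and 11 motifs were searched on both strands in the 250 bases before the start, with positions counted back from -1 at the base next to the start. No matches overlapped each other. The Lcn10 promoter held TTCNNNGAA, the palindrome that STAT factors bind, at -168 to -160 and at -86 to -78. Of 32851 RefSeq promoters 7.02% held at least 1 such match and 0.317% held 2 or more, and none of the other 5 members held any. Adamtsl2 had the TATA box letters TATAAA at -30 to -25, found in 12.4% of promoters, and CAGCTG, an E-box, at -158 to -153 and at -22 to -17, found in 13.0%. Cpd had GGAAAA, the NFAT core, at -141 to -136, found in 20.4% of promoters. GGGCGG, the GC box, stood on either strand in Adamtsl2, Cpd, Akr1c18 and Epcam and in 32.7% of promoters.

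Motifs with no match in the 6 windows included GTAAACA (forkhead, in 3.17% of promoters), TGANTCA (AP-1, 6.75%), TGACGTCA (CRE, 1.55%), CCGGAAG (Ets, 6.91%) and GTCTAGAC (SMAD, 0.167%). The windows differed in composition. Lcn10 had 1 CpG where the median promoter had 6 and 7.87% had fewer than Lcn10, while Cpd had 14 and Stxbp6 12. The RefSeq start was that of the deposited table for Lcn10, Adamtsl2 and Epcam, while for Akr1c18, Cpd and Stxbp6, all on the minus strand, its coordinate minus the table's was -8, -10 and -226 bases. Those windows therefore overlap the gene as the table lists it, by the first 10 bases or fewer for Akr1c18 and Cpd.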

How the data were processed

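Per the labels' protocols, RNA of 6 mouse libraries, 2 per cell type, was isolated on small-scale columns and turned into mRNA libraries with a SMARTER kit. Cutadapt, STAR, DESeq2 and the build mm10 appear in the submitters' processing notes. For the counting tool, its annotation and its strand setting, the sources used here give nothing. The values the authors deposited are raw counts, whole numbers for each gene in each library, beside gene lengths and coordinates. Per the file headers the table also holds the authors' log2 fold changes and p-values, printed only where named as theirs. Another 6 columns of per-library values (FPKM) and 4 of group means were not used. Since columns are numbered 1 and 5 and sample titles 1 and 2, a column was tied to a cell type and to no single sample.

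Counts were tested with edgeR 4.0.16 in R 4.3.3 (quasi-likelihood F-test in 1 model over 6 libraries, 3 residual degrees of freedom, TMM scaling, a filterByExpr minimum of 10 counts), after a check on simulated data, with Benjamini-Hochberg adjustment over all 15543 genes tested and calls at an adjusted p under 0.05. Total counts, 16458939 to 17901331, put the floor of 3 counts per library at 0.168 CPM in Treg, 0.161 in Th17 and 0.200 in naive libraries. Intervals are 95% exact binomial and, like the floor, cover counting error only. The SE is the absolute log2 fold change over the square root of F, and is rough near 0 counts. Between libraries of a type the count differences exceeded sampling noise (chi-square over its degrees of freedom was 16.6 in Treg, 19.6 in Th17 and 37.5 in naive), so none was a library deposited again.

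The 6 genes, the 8 gene lists, the 11 marker lists and the motifs were chosen with earlier results of these data known. Genes that passed the filter on low counts through Treg alone, such as Lcn6, Obp2a, Rbp4, Fbln2, Cdh1 and Cldn7, could hardly be called lower in Treg, in lists or among neighbours. Named besides the 6 genes were the 3 nearest profiles of each, up to 3 called list genes per direction with the largest fold change, no overlap between types and at least 1 CPM in the higher type, the nearest coding neighbours, and neighbours called the same way in both Treg comparisons; a few genes that this rule names are not reported here. Family members were compared by coding sequence in GENCODE transcripts, since protein sequences were not used here. Promoters are from RefSeq on GRCm38.p6. Alternatives were scaling by total count or RLE, no filter, DESeq2 1.42.0, limma-voom (limma 3.58.1), leaving out each library and, chosen after seeing the data, a block on the column number and leaving out each library for the list counts.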

Additional observations from a re-analysis of the deposited data

How the results depend on the processing

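Cpd and Epcam passed in Th17 against naive cells, in the same direction, under scaling by total count or RLE, no filter, DESeq2, limma-voom, a block and without each library. For the other fold changes of the 6 genes, which have no test, 170 alternative values moved by no more than the spread between libraries and 22 by more, with no change of sign in the Treg comparisons. Genes called over all tested numbered 8973 in Th17 against naive cells, 6748 in Treg against naive cells and 5974 in Treg against Th17 cells, and without each library in turn 7132 to 8832, 4613 to 6581 and 4119 to 6550. Neighbours called higher in Treg in both comparisons numbered 5 within 200 kb and 3 within 50 kb, which holds fewer genes. Both counts include Lcn6 and Obp2a, which passed the filter through Treg. Of the list counts under another setting, 42 moved by over 1.5 times and 390 did not. By Pearson's r 2 of 18 nearest genes were kept. The column numbers 1 and 5 cannot be tied to the 1 and 2 of the labels, but are shared by the 3 types. Library 1 minus library 5 correlated across 15543 genes at 0.06 between Treg and Th17, 0.21 between Treg and naive and 0.02 between Th17 and naive, so the numbers were not taken to pair libraries. A replicate block on them, chosen after seeing the data, gave 9116 genes called in Th17 against naive cells, 6974 in Treg against naive cells and 6296 in Treg against Th17 cells, and the convertase and arginine genes that fell numbered 2 rather than 1 against naive cells in both Th17 and Treg. With 2 libraries a type, small differences between libraries and between types cannot be separated.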
